A study of Mus musculus with 17 samples.

Results

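The 40 genes described here encode enzymes and binding proteins that remove reactive oxygen species, repair oxidized proteins, make and use glutathione, or bind zinc and copper, together with the transcription factor gene Nfe2l2 and its inhibitor gene Keap1. They were taken as a fixed list of symbols, and all 40 were among the 24491 genes counted in each of 17 RNA sequencing libraries from mice. In the oocyte libraries 28 of the 40 passed the filter on low counts and were tested, and 12 did not pass it. In the hippocampus libraries all 40 were tested.

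All mice were wild type of strain CD1. The oocyte libraries held about 10 mature (MII) oocytes each, collected after gonadotropin injections and stripped of cumulus cells with hyaluronidase. There were 3 libraries from 48-week-old females injected intraperitoneally with rapamycin at 2 mg/kg from week 8 on, for 40 weeks (rapamycin), 2 from untreated 48-week-old females (aged) and 2 from untreated 4-week-old females (young). The 48-week-old females received 10 IU of each gonadotropin and the 4-week-old females 5 IU, so the hormone dose differed with age. The hippocampus libraries came from adult female offspring aged 40 to 44 weeks, with 3 libraries from offspring of rapamycin-treated aged mothers, 3 from offspring of aged mothers and 4 from offspring of young mothers. The offspring themselves carry no stated treatment: the group names refer to the mother. Nothing in the labels ties a library to a single animal, so p-values measure only how these libraries vary, and part of that variation may be technical.

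Superoxide dismutases turn superoxide into hydrogen peroxide, which catalase, glutathione peroxidases and peroxiredoxins break down. The peroxidases and peroxiredoxins draw on glutathione or thioredoxin to do so. Under oxidative stress NRF2, the product of Nfe2l2, escapes KEAP1 and binds antioxidant response elements before many of these genes. The metallothionein genes Mt1 and Mt2 are switched on by metals and glucocorticoids. A fully grown oocyte is nearly silent in transcription, so its RNA is mostly a stored maternal pool. In the brain, the metallothioneins and many glutathione enzymes are known mainly from astrocytes.

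Sequences before the start of 5 of the genes are shown. Gsto2 passed the test for rapamycin against young oocytes with all libraries. Glrx and Nfe2l2 passed in oocytes once the library rapamycin 1 was left out. Mt1 and Mt2 were picked because their windows hold a match to a motif named below. The window of Mt3, the remaining metallothionein, holds none and is not printed. Each line runs 5′ to 3′ in the direction of the gene and ends before its first exon (RefSeq, GRCm38.p6). Capitals mark matches to the core of the metal response element, TGCACNC or TGCGCNC, or of the antioxidant response element, TGACNNNGC, on either strand. The Glrx window is chr13:75839635-75839867 (+), Gsto2 is chr19:47865295-47865533 (+), Nfe2l2 is chr2:75704664-75704913 (-), Mt1 is chr8:94178839-94179081 (+) and Mt2 is chr8:94172368-94172617 (+).
Glrx: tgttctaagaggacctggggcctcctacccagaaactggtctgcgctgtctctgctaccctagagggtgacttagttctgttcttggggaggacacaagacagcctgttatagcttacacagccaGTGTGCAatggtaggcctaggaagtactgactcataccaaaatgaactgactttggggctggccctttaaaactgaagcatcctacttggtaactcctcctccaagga
Gsto2: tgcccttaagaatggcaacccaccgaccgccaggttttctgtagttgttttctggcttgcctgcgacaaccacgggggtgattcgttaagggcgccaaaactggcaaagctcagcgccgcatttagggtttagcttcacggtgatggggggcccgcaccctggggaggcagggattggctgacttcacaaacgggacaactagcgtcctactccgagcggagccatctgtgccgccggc
Nfe2l2: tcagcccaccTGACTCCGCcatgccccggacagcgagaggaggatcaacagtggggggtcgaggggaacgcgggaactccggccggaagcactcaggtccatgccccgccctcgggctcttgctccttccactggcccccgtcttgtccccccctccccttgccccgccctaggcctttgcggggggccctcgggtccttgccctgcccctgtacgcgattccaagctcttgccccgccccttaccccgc
Mt1: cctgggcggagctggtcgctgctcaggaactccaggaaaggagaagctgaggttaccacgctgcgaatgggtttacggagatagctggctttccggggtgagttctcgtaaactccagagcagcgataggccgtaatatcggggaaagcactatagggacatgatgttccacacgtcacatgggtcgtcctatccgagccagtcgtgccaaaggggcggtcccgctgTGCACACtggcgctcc
Mt2: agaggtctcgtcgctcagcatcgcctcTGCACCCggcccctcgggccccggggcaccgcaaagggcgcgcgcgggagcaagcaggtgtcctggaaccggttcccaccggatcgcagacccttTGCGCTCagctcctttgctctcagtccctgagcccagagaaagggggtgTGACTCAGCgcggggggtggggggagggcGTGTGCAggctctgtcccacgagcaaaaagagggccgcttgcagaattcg

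The Mt2 window held 3 metal response cores and 1 antioxidant core, the Mt1 and Glrx windows 1 metal core each, the Nfe2l2 window 1 antioxidant core, and the Gsto2 window as printed neither. The printed windows are 233 to 250 bases long, being cut at the gene's own exon where it comes first, while the shares were taken over the whole 250 bases before each RefSeq start site. There 11 of the 35 members with a window (31.4%) held a metal core, against 23.8% of 27025 genes. The antioxidant core stood in 6 of 35 members (17.1%: Gclm, Mt2, Nfe2l2, Prdx1, Sod1 and Txnrd1), against 11.5% of all genes. A match is a run of letters and not a measured binding site. Bases after the annotated start, as in the first exon of Mt1, were not searched, so the counts do not describe whole promoters. The Mt2 window lies under an exon of the antisense gene Gm45774, and the Nfe2l2 window lies partly under an exon of E030042O20Rik on the other strand.

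Oocyte libraries held 3912163 to 8334873 reads in genes and hippocampus libraries 16434398 to 20220617. Levels are given in CPM, reads of a gene per 1000000 reads of the normalized library size, scaled separately in the tissues. A count of 3 corresponded to 0.349 to 0.809 CPM in an oocyte library. The oocyte library rapamycin 1 stood apart: its 10 oocyte marker genes summed to 1892 CPM, against 20983 to 28400 CPM in the other 6, and its 17 cumulus and granulosa markers to 297 CPM, against 60.9 to 116 CPM. Oocyte results are therefore given with and without it. In counts simulated for the fit of all 7 oocyte libraries, 42% to 46% of 8-fold changes and no 2-fold changes were recovered. The biological coefficient of variation was 49.5% in that fit and 28.1% without rapamycin 1, a fit that was not simulated. In simulated hippocampus counts 46% to 54% of 2-fold changes were recovered.

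The members were used very unequally in oocytes. Per kilobase of annotated exon, Prdx1, a cytosolic peroxiredoxin, had the highest mean level, at 478 CPM per kilobase. It measured 956, 1814 and 1501 CPM in rapamycin oocytes, 1062 and 1502 CPM in aged oocytes and 1968 and 1375 CPM in young oocytes, and the groups overlapped. Txnip, which encodes the inhibitor that binds thioredoxin, followed with 391, 856 and 1546 CPM in rapamycin oocytes, 1538 and 1165 CPM in aged oocytes and 837 and 567 CPM in young oocytes. Prdx2, a peroxiredoxin abundant in red cells and neurons, came next, with 3908, 405 and 174 CPM in rapamycin oocytes, 107 and 256 CPM in aged oocytes and 313 and 256 CPM in young oocytes. The 3908 CPM came from rapamycin 1, and the other 6 libraries lay between 107 and 405 CPM. Exons of Junb and Rnaseh2a on the other strand lie over those of Prdx2, so reads of these genes cannot be told apart where they overlap. Prdx1, Txnip and Prdx2 carried 35.7%, 24.2% and 19.0% of the members' summed CPM in oocytes. Without rapamycin 1 the shares were 41.4%, 29.2% and 6.79%, and Prdx2 averaged 82.6 CPM per kilobase, against 254 with all libraries, still next after Txnip.

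At the other end, no member was at 0 in every library of a tissue, but 12 were too low for testing in oocytes. These were Sod3, Cat, Gpx7, Gpx8, Prdx4, Txnrd2, Glrx2, Srxn1, Mt2, Mt3, Gsto1 and Msrb1. Gpx7, an endoplasmic reticulum peroxidase, had 1 count in all 7 oocyte libraries together. Catalase stayed at 0.270 to 4.30 CPM, with its highest value in rapamycin 1.

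In hippocampus the order differed. Per kilobase, Gstm1, a glutathione transferase, led at 230 CPM per kilobase, followed by Mt1 at 221 and Mt3 at 210. The annotated exons of Mt1, 1246 bases, fill the gene from start to end, so the order of these close values depends on the exon lengths used. Gstm1 measured 239, 622 and 203 CPM in offspring of rapamycin-treated mothers, 301, 436 and 294 CPM in offspring of aged mothers and 254, 570, 206 and 267 CPM in offspring of young mothers. Across the 17 libraries, 25 members were lower in all oocyte libraries than in all hippocampus libraries, 4 were higher (Prdx1, Txnip, Gpx3 and Nqo1) and 11 overlapped. The library protocols and scaling differed between the tissues, so no test was made. The share of all genes that separate in this way was not computed, so the counts cannot be set against a background.

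**Figure D1:**
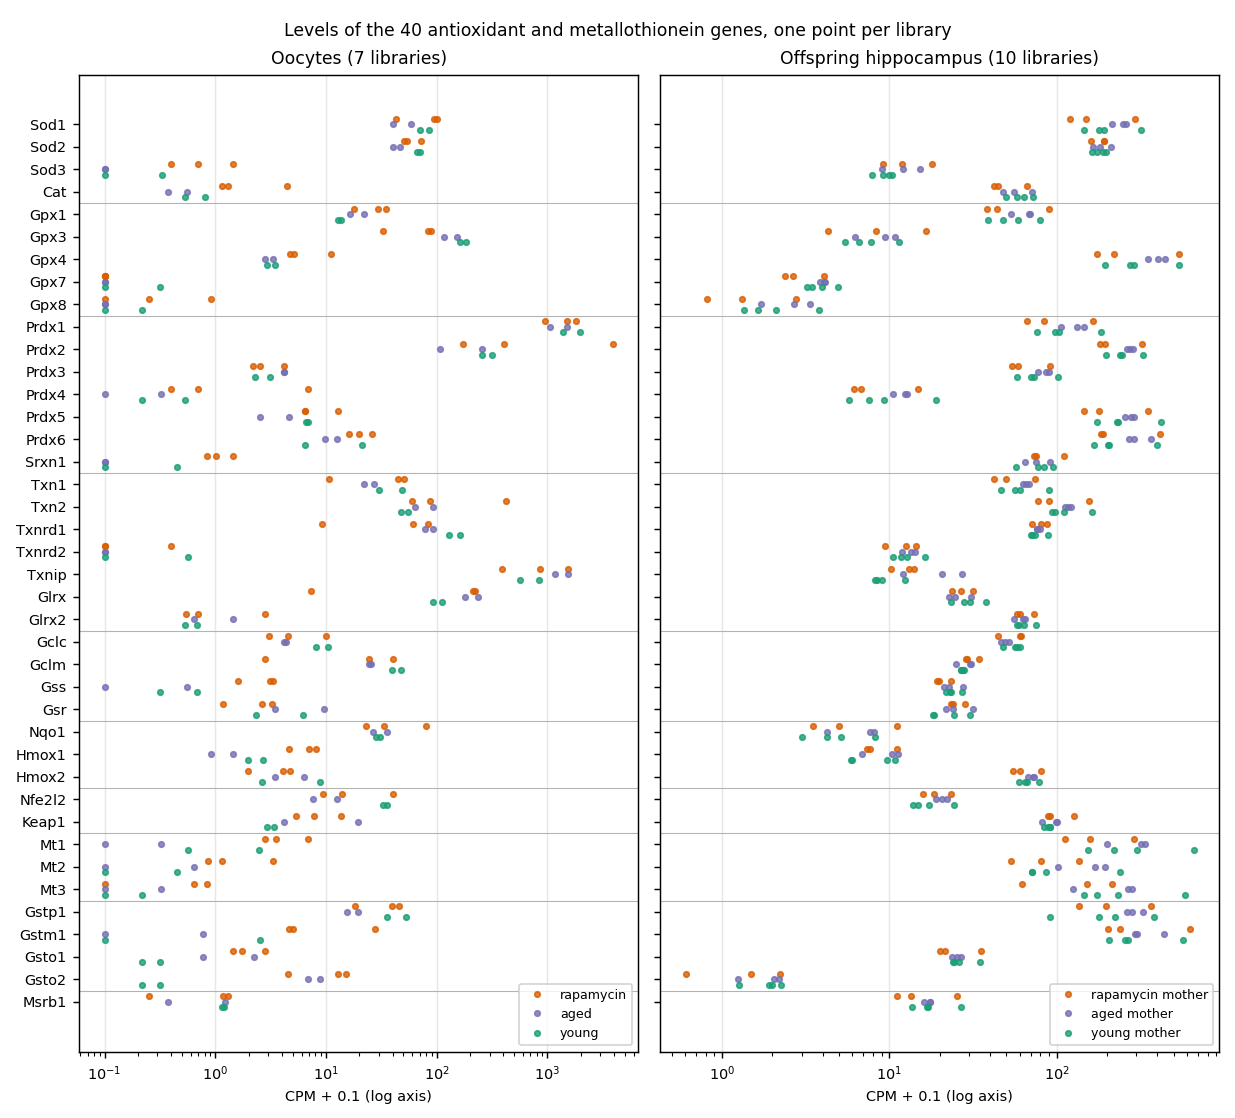
Level of each of the 40 genes in CPM plus 0.1 (log axis), with oocyte libraries at left and offspring hippocampus libraries at right. Each point is 1 library, coloured by group, and horizontal lines separate the roles. The 3 metallothioneins lie at 0 to 6.72 CPM in oocytes and at 53.3 to 662 CPM in hippocampus.

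The comparison of aged with young oocytes asks how the stored antioxidant RNA differs with the mother's age. With all libraries in the fit, none of the 28 tested members passed (edgeR quasi-likelihood test, Benjamini-Hochberg adjusted p under 0.05), where 0.268% of 10083 genes did, and DESeq2 called 1 member, Gsto2. At an unadjusted p under 0.05 there were 4 members, 14.3% of those tested, against 11.5% of all genes. Without rapamycin 1, Gsto2 and Glrx rose and Nfe2l2 fell in aged oocytes, 3 of 27 members tested. The share of all 10220 genes called in that fit was 6.27% higher and 5.16% lower, 11.4% in all, so the members' count is near the background. An unadjusted edgeR p under 0.05 was found there for 12 of the 27 members, or 44.4%, against 30.7% of all genes. The median change over the members was -0.52 on the log2 scale with all libraries and -0.39 without rapamycin 1, against -0.01 and -0.03 over all genes tested.

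Gsto2, an omega-class glutathione transferase that reduces dehydroascorbate, gave the clearest separation. It measured 12.6, 4.47 and 14.9 CPM in rapamycin oocytes, 8.62 and 6.74 CPM in aged oocytes and 0.218 and 0.116 CPM in young oocytes. Each young library held 1 read of Gsto2, while the older libraries held 30 to 99. The ratio of aged to young oocytes was 50.1 by summed counts, with an exact 95% interval of 13.3 to 423 that covers counting error only. By the fit, the log2 fold change of aged over young oocytes was 5.43 ± 0.93, an approximate standard error (SE). Its edgeR adjusted p was 0.0794 over all libraries and 0.00929 without rapamycin 1. Here and below, the SE is the absolute log2 fold change divided by the square root of the test's F statistic.

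Rapamycin oocytes were likewise far above young oocytes in Gsto2. The ratio was 68.0 with an interval of 18.5 to 565.5, and 63.7 without rapamycin 1. The log2 fold change was 5.91 ± 0.90, and Gsto2 was the single member called in that comparison (edgeR adjusted p 0.0488 with all libraries and 0.00932 without rapamycin 1). The call with all libraries was lost when any 1 of the other 6 libraries was left out, and kept without rapamycin 1, while the log2 fold change stayed between 5.50 and 6.28. The 3 rapamycin libraries overlapped with the aged ones, and their difference was 0.47 ± 0.61 (adjusted p 0.844). Fewer transcripts in each oocyte and fewer oocytes with the transcript cannot be told apart in such pools.

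Gsto2 has a close neighbour on chromosome 19, its paralog Gsto1, which lies just before it on the same strand. Gsto1 did not pass the filter. It measured 2.69, 1.34 and 1.66 CPM in rapamycin oocytes, 2.16 and 0.674 CPM in aged oocytes and 0.218 and 0.116 CPM in young oocytes, again with 2 reads in all in young oocytes. Its ratio was 8.89 for aged over young oocytes (interval 1.94 to 82.5) and 11.6 for rapamycin over young oocytes (2.94 to 100.03). In neither gene did an older library overlap with a young one. No run of 75 bases in the annotated transcripts of Gsto1 or Gsto2 was shared with another gene.

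Glrx, cytosolic glutaredoxin, which removes glutathione from modified proteins, was the second gene that was higher with age. It measured 7.26, 210 and 220 CPM in rapamycin oocytes, 237 and 181 CPM in aged oocytes and 111 and 91.8 CPM in young oocytes. Apart from rapamycin 1, every older library exceeded both young ones. The log2 fold change of aged over young oocytes was 1.04 ± 1.13 with all libraries (edgeR adjusted p 0.752) and 1.03 ± 0.24 without rapamycin 1 (adjusted p 0.0274). For rapamycin over young oocytes it was 0.52 ± 1.04 with all libraries and 1.10 ± 0.24 without rapamycin 1 (edgeR adjusted p 0.888 and 0.0407).

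Nfe2l2 encodes NRF2, the main activator of the antioxidant response. It measured 39.8, 13.8 and 9.34 CPM in rapamycin oocytes, 7.55 and 12.6 CPM in aged oocytes and 35.1 and 32.7 CPM in young oocytes. Both aged libraries lay below both young ones. The change was -1.75 ± 0.72 with all libraries (edgeR adjusted p 0.417) and -1.74 ± 0.39 without rapamycin 1 (adjusted p 0.0251). In the comparison of rapamycin with young oocytes, Nfe2l2 did not pass, at -0.70 ± 0.63 with all libraries and -1.53 ± 0.38 without rapamycin 1 (edgeR adjusted p 0.747 and 0.0659). Its inhibitor gene Keap1 measured 13.4, 5.21 and 7.68 CPM in rapamycin oocytes, 19.1 and 4.05 CPM in aged oocytes and 2.83 and 3.26 CPM in young oocytes, and did not pass in any fit.

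The count of members whose libraries did not overlap between aged and young oocytes was 19 of 28, 7 higher and 12 lower in aged oocytes. With 2 libraries a group this happens easily, and 61.3% of all genes did so. Among the 12 lower ones were both subunits of glutamate-cysteine ligase, the enzyme that starts glutathione synthesis, and Txnrd1, thioredoxin reductase. Gclm measured 2.69, 24.4 and 39.8 CPM in rapamycin oocytes, 25.6 and 24.5 CPM in aged oocytes and 47.5 and 39.2 CPM in young oocytes. Txnrd1 measured 9.14, 61.0 and 84.1 CPM in rapamycin oocytes, 91.9 and 78.7 CPM in aged oocytes and 161 and 130 CPM in young oocytes. Their changes for aged over young oocytes, -0.79 ± 0.92 for Gclm and -0.77 ± 0.82 for Txnrd1, did not pass. Gpx3, the secreted glutathione peroxidase, was lowest in rapamycin oocytes, with 32.8, 82.9 and 88.6 CPM, against 153 and 115 CPM in aged oocytes and 162 and 182 CPM in young oocytes. Its change for rapamycin over young oocytes was -1.34 ± 0.46 with all libraries and -0.99 ± 0.24 without rapamycin 1 (edgeR adjusted p 0.46 and 0.0606).

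**Figure D2:**
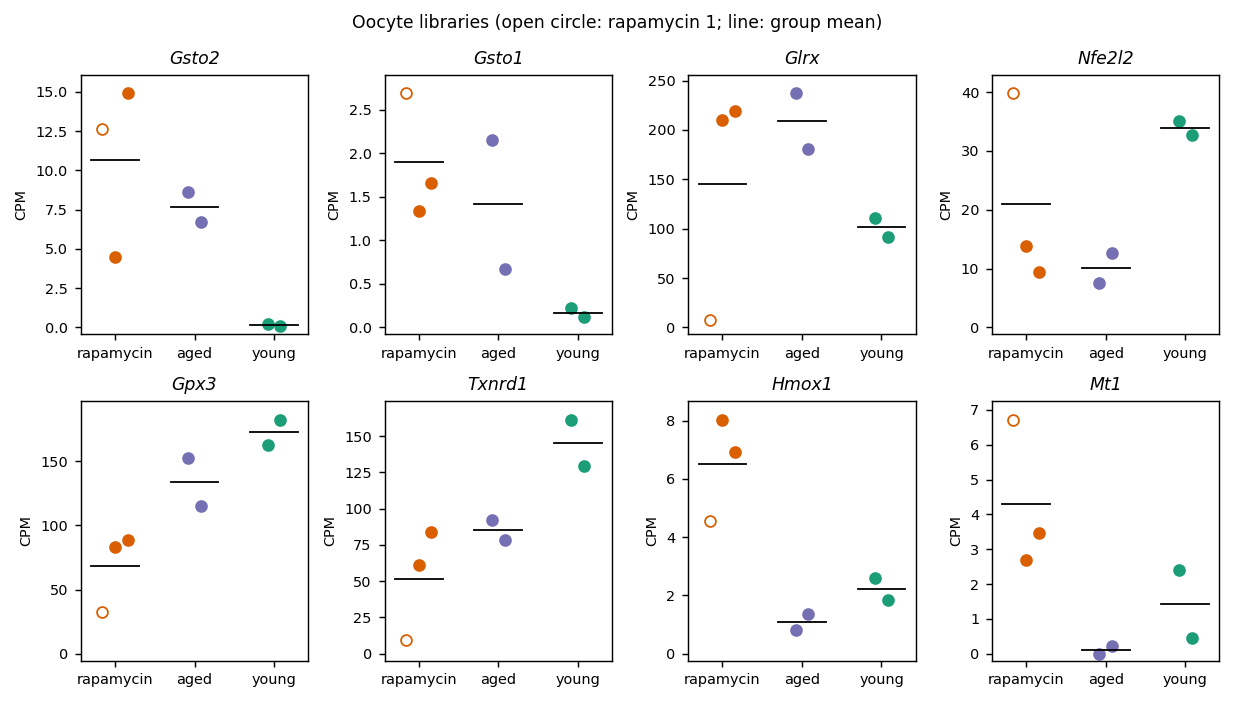
Level in CPM (linear axis) of 8 members in the 7 oocyte libraries, by group, with a line at the group mean and rapamycin 1 drawn as an open circle. Gsto2 and Gsto1 were near 0 in both young libraries, and Hmox1 was higher in the 3 rapamycin libraries, at 4.57 to 8.04 CPM, than in the aged and young ones.

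The comparison of rapamycin with aged oocytes asks how oocytes of treated and untreated females of the same age differed. No member and no gene passed in the fit of all libraries (0% of 10083 genes by edgeR), and DESeq2 called 11 genes and no member. At an unadjusted p under 0.05 there were 5 members, 17.9% of those tested, against 5.98% of all genes. Of these 5, Mt1, Gstm1 and Gss passed the low-count filter on reads outside the aged libraries, mostly in rapamycin oocytes. The share is therefore no test of the list. Without rapamycin 1, no member passed either, and 0.0587% of all genes did. In that fit 6 of 27 tested members had an unadjusted edgeR p under 0.05, or 22.2%, against 15.3% of all genes. The members' median was 0.51 on the log2 scale, or 0.36 without rapamycin 1, against 0.01 and 0.02 over all genes. The groups did not overlap for 10 members, 8 higher and 2 lower in rapamycin oocytes (background 25.6%).

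The 4 members of smallest p were Hmox1, Mt1, Gstm1 and Gss. Hmox1, the inducible heme oxygenase, measured 4.57, 8.04 and 6.93 CPM in rapamycin oocytes, 0.809 and 1.35 CPM in aged oocytes and 2.62 and 1.86 CPM in young oocytes. All 3 rapamycin libraries lay above the other 4. The change of rapamycin over aged oocytes was 2.56 ± 0.67 with all libraries and 2.77 ± 0.60 without rapamycin 1 (edgeR unadjusted p 0.00493 and 0.00105, adjusted p 0.73 and 0.226).

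Mt1 measured 6.72, 2.68 and 3.47 CPM in rapamycin oocytes, 0 and 0.225 CPM in aged oocytes and 2.40 and 0.465 CPM in young oocytes. The aged libraries held 1 read of Mt1 together. The ratio of rapamycin to aged oocytes was 31.5 with an interval of 5.47 to 1264, or 25.1 (4.25 to 1013) without rapamycin 1, and the edgeR adjusted p was 0.73. Mt2 measured 3.23, 1.04 and 0.753 CPM in rapamycin oocytes, 0.539 and 0 CPM in aged oocytes and 0 and 0.349 CPM in young oocytes. Mt3, the brain metallothionein, measured 0.538, 0.744 and 0 CPM in rapamycin oocytes, 0 and 0.225 CPM in aged oocytes and 0 and 0.116 CPM in young oocytes, at or near the level of a few reads.

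Gstm1 measured 27.4, 4.91 and 4.52 CPM in rapamycin oocytes, 0 and 0.674 CPM in aged oocytes and 0 and 2.44 CPM in young oocytes, with its highest value in rapamycin 1. The ratio of rapamycin to aged oocytes was 26.3 (8.84 to 129), or 12.8 (4.19 to 63.9) without rapamycin 1. Gss, glutathione synthetase, measured 3.23, 1.49 and 3.01 CPM in rapamycin oocytes, 0 and 0.449 CPM in aged oocytes and 0.218 and 0.582 CPM in young oocytes, and its ratio was 10.0 (2.61 to 85.6), or 9.17 (2.33 to 79.1) without rapamycin 1. Exons of Gss lie over Acss2 on the other strand, and such reads cannot be told apart here. Without rapamycin 1, Gss did not pass the low-count filter and was not tested, so its ratio there rests on counts alone. The aged libraries together held 3 reads of Gstm1 and 2 of Gss. Neither gene passed where it was tested.

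Markers of follicle cells were also measured in these libraries. Cyp11a1, the cholesterol side-chain cleavage enzyme of steroid-making follicle cells, measured 7.26, 4.91 and 3.92 CPM in rapamycin oocytes, 0.270 and 0.225 CPM in aged oocytes and 2.18 and 1.98 CPM in young oocytes. It did not pass for rapamycin against aged oocytes (edgeR adjusted p 0.73 with all libraries and 0.223 without rapamycin 1). Cyp19a1, the aromatase of granulosa cells and a gene of the same list, was instead lower in rapamycin than in aged oocytes. It was highest in young oocytes. Cyp19a1 measured 11.02, 24.6 and 34.5 CPM in rapamycin oocytes, 47.4 and 43.1 CPM in aged oocytes and 80.4 and 76.1 CPM in young oocytes. This gene alone made up most of the list's summed CPM in each aged and young library. The 17 cumulus and granulosa markers summed to 297, 62.1 and 68.4 CPM in rapamycin oocytes, 60.9 and 72.8 CPM in aged oocytes and 116 and 98.5 CPM in young oocytes. Of the 17, 2, 5 and 4 were at 0 in the rapamycin libraries, 8 and 9 in the aged ones and 5 and 4 in the young ones. Ptx3, a defining cumulus gene, reached at most 0.538 CPM, in rapamycin 1, and was at 0 in both aged libraries. Inha and Gja1, of the same list, stood far higher in rapamycin 1, while Cyp19a1 was lowest there. Inha measured 77.2 CPM in that library, against 0 to 4.05 CPM in the others. Gja1 measured 31.5 CPM in it, against 0 to 2.40 CPM in the others. The part of these genes in the values of Hmox1, Mt1 and Gstm1 was not tested. The cytosolic ribosomal protein genes summed to 3314, 2259 and 2354 CPM in rapamycin oocytes, 1185 and 1583 CPM in aged oocytes and 2403 and 2270 CPM in young oocytes, and their part was not tested either.

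In the comparison of rapamycin with young oocytes, the single member called was among 0.208% of genes called higher and 0.426% called in either direction. Without rapamycin 1, where Gsto2 and Glrx rose, the shares were 1.45% higher and 2.97% in all. The groups did not overlap for 11 of 28 members, 9 of them higher in rapamycin oocytes (background 33.4%). The members' median was 0.37, or 0.23 without rapamycin 1. The aged-over-young and rapamycin-over-young comparisons share both young libraries, so Gsto2 and Glrx in one are not independent of the other.

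**Figure D3:**
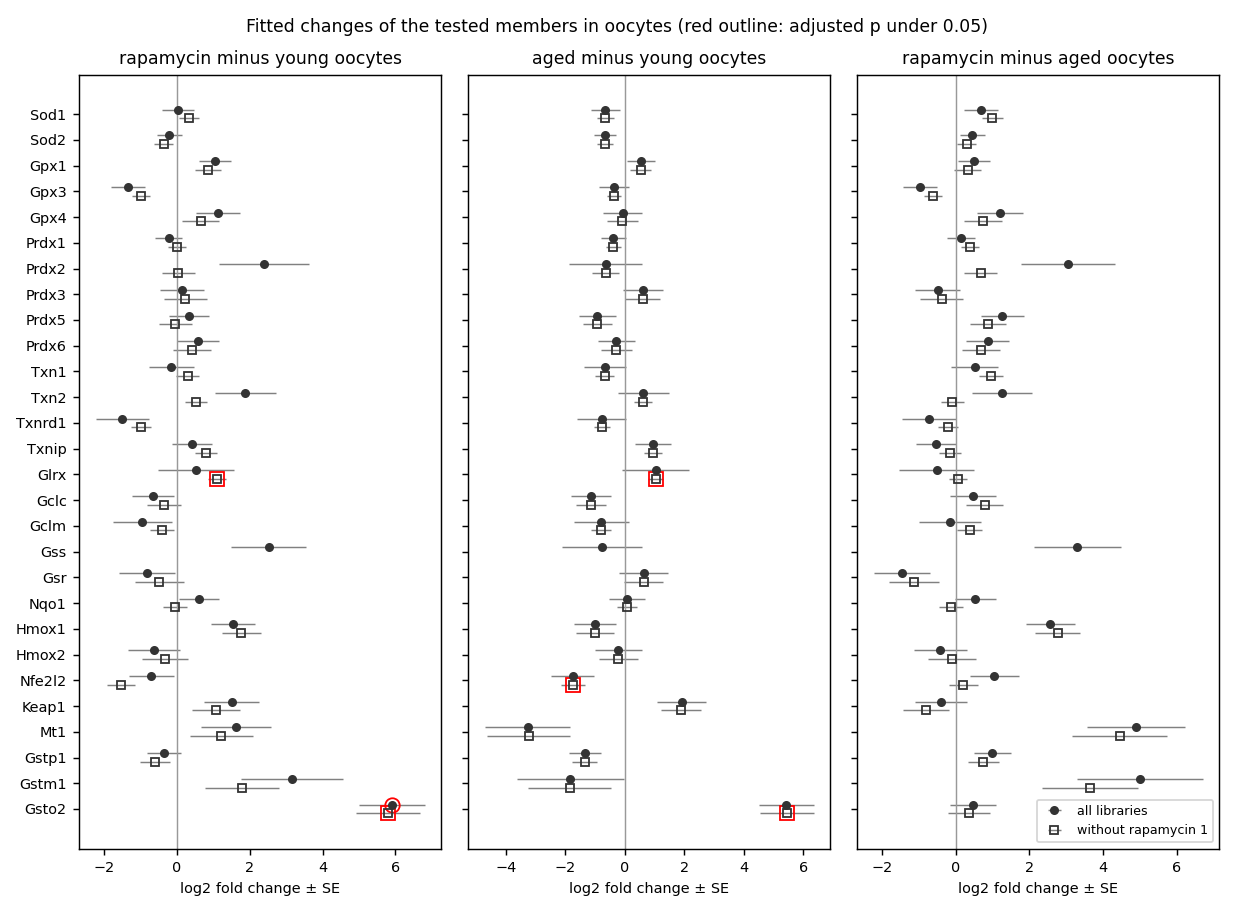
Fitted log2 fold change with its approximate standard error for the tested members in the 3 oocyte comparisons, from all libraries (filled circles) and without rapamycin 1 (open squares). Gsto2 lies near 5.43 and 5.91 in the comparisons with young oocytes and near 0.47 between rapamycin and aged oocytes, and of the members tested in both fits Prdx2, Gstm1 and Txn2 shift most when rapamycin 1 is left out.

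The roles were described by counts and not tested. For aged over young oocytes, both tested superoxide dismutase genes, 4 of 5 peroxiredoxin genes, 3 of 4 genes of glutathione synthesis and recycling and 2 of 3 quinone and heme enzymes had a fitted change below 0, none of them called. The 5 thioredoxin and glutaredoxin genes split 3 above and 2 below 0. For rapamycin over aged oocytes, both superoxide dismutase genes, all 3 tested glutathione transferases and 4 of 5 peroxiredoxin genes had a fitted change above 0, again none of them called. Sod1, the cytosolic copper-zinc superoxide dismutase, measured 42.7, 93.5 and 99.9 CPM in rapamycin oocytes, 40.2 and 58.0 CPM in aged oocytes and 84.3 and 70.1 CPM in young oocytes, so that rapamycin 1 lay with the aged libraries and the other rapamycin libraries above the young ones. Sod2, the mitochondrial form, measured 72.3, 50.8 and 54.1 CPM in rapamycin oocytes, 39.9 and 46.1 CPM in aged oocytes and 70.2 and 66.2 CPM in young oocytes. Txn2, mitochondrial thioredoxin, reached 420 CPM in rapamycin 1 and 47.5 to 93.3 CPM in the other 6.

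A wider list of 54 redox genes, such as pentose phosphate enzymes, ferritin chains and further glutathione transferases, was examined in the same fits, and 41 of them were tested in oocytes. None passed with all libraries. Without rapamycin 1, 1 of the 41 was higher and 5 were lower in aged than in young oocytes. Of all 10220 genes in that fit 6.27% were called higher and 5.16% lower, 11.4% in all, so a call alone is not particular to redox genes. The list's calls lay mainly on the lower side, unlike those over all genes, and this split was not tested. G6pdx, the first enzyme of the pentose phosphate path that supplies NADPH, measured 217, 275 and 184 CPM in rapamycin oocytes, 337 and 276 CPM in aged oocytes and 112 and 95.3 CPM in young oocytes. Its change of aged over young oocytes was 1.55 ± 0.26 (edgeR adjusted p 0.01). The 5 lower ones were Ftl1, the ferritin light chain, Mgst1 and Mgst3, microsomal glutathione transferases, Msrb3, a methionine sulfoxide reductase, and Slc30a1, a zinc exporter. Ftl1 measured 66.4, 38.9 and 44.1 CPM in rapamycin oocytes, 18.6 and 17.8 CPM in aged oocytes and 79.8 and 42.1 CPM in young oocytes. For rapamycin over young oocytes without rapamycin 1, G6pdx was higher and Msrb3 lower, where 1.45% of all genes were called higher and 1.53% lower. For rapamycin over aged oocytes none was called.

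In hippocampus no member passed in any of the 3 comparisons. For offspring of aged against young mothers, 0.0471% of 14877 genes were called by edgeR. For offspring of rapamycin-treated against aged mothers it was 0%, and for offspring of rapamycin-treated against young mothers 0.0538%. At an unadjusted p under 0.05 there were 1, 1 and 0 members, or 2.5%, 2.5% and 0% of the 40, against 3.51%, 4.52% and 3.63% of all genes. DESeq2 called 1, 0 and 0 members. The medians over the 40 members were 0.08, -0.14 and -0.07 in that order. Libraries did not overlap for 0 members in the first comparison (background 5.44%), 0 in the second (background 9.89%) and 1 in the third (background 5.03%). Between the rapamycin-mother and young-mother groups, libraries with the same replicate number varied together, but so did some with different numbers. With that number as a block, 4 genes and still no member were called there.

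The 1 member without overlap was Gclm, the modifier subunit of glutamate-cysteine ligase. It measured 28.5, 34.4 and 29.1 CPM in offspring of rapamycin-treated mothers and 26.6, 27.9, 27.4 and 26.5 CPM in offspring of young mothers, a change of 0.18 ± 0.12 that did not pass.

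Txnip had the smallest p for offspring of aged against young mothers. It measured 10.2, 13.9 and 12.9 CPM in offspring of rapamycin-treated mothers, 27.0, 20.5 and 12.0 CPM in offspring of aged mothers and 8.39, 12.3, 8.95 and 8.16 CPM in offspring of young mothers. Aged-mother libraries 1 and 2 lay above every other library, and library 3 was inside the range of the young-mother libraries. The change of aged-mother over young-mother offspring was 1.07 ± 0.26 (edgeR unadjusted p 0.00176, adjusted p 0.558; DESeq2 adjusted p 0.0482). For offspring of rapamycin-treated against aged mothers it was -0.68 ± 0.28 (edgeR adjusted p 0.796), and against young mothers 0.39 ± 0.26. Txnip is known as a gene that glucocorticoids and glucose raise. The 14 glucocorticoid-responsive genes summed to 775, 669 and 762 CPM in offspring of rapamycin-treated mothers, 1028, 949 and 854 CPM in offspring of aged mothers and 618, 627, 634 and 592 CPM in offspring of young mothers. Those sums did not overlap between groups, but the list's mean log2(CPM + 1), centred over the 10 libraries, did. It was 0.125, -0.093 and 0.029 in offspring of rapamycin-treated mothers and 0.555, 0.296 and 0.016 in offspring of aged mothers. In offspring of young mothers it was -0.275, 0.028, -0.255 and -0.428. None of the 14 genes passed (lowest edgeR adjusted p 0.0618, for aged against young mothers), and their part in the Txnip values was not tested. Part of Txnip also lies over the antisense gene Gm15441.

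**Figure D4:**
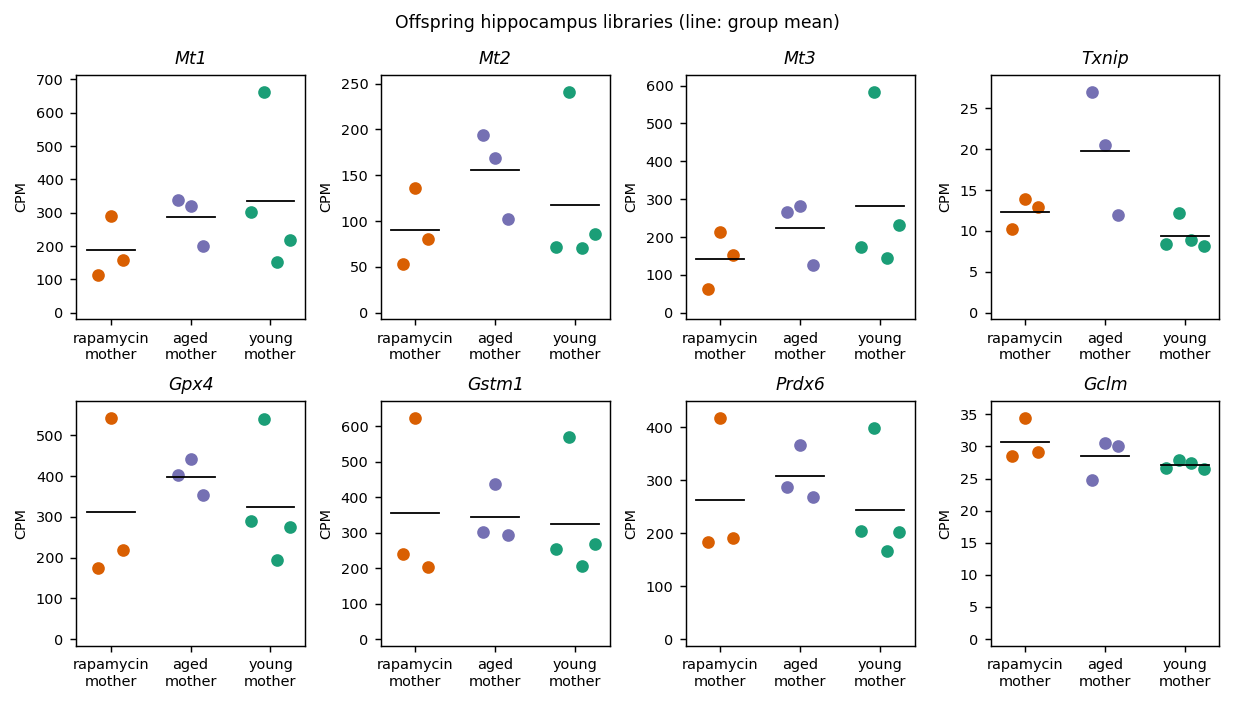
Level in CPM (linear axis) of 8 members in the 10 hippocampus libraries, by group of mother, with a line at the group mean. Young-mother library 2 and rapamycin-mother library 2 were the highest of their groups for most members, and Txnip reached 27.0 CPM in an aged-mother library.

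The metallothioneins varied widely among the hippocampus libraries. Mt1 measured 113, 292 and 158 CPM in offspring of rapamycin-treated mothers, 339, 321 and 199 CPM in offspring of aged mothers and 303, 662, 154 and 220 CPM in offspring of young mothers. Mt2 measured 53.3, 136 and 80.4 CPM in offspring of rapamycin-treated mothers, 194, 169 and 102 CPM in offspring of aged mothers and 71.5, 241, 71.1 and 86.3 CPM in offspring of young mothers. Mt3, which neurons and astrocytes make, measured 61.8, 213 and 152 CPM in offspring of rapamycin-treated mothers, 267, 283 and 125 CPM in offspring of aged mothers and 173, 583, 145 and 233 CPM in offspring of young mothers. The groups overlapped for all 3 genes.

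The fitted changes for offspring of rapamycin-treated over aged mothers were -0.61 ± 0.51 for Mt1, -0.79 ± 0.50 for Mt2 and -0.66 ± 0.57 for Mt3, with edgeR adjusted p 0.796 for each. Against young mothers they were -0.83 ± 0.48, -0.38 ± 0.47 and -0.99 ± 0.54. Without young-mother library 2 these were -0.28 for Mt1, 0.23 for Mt2 and -0.38 for Mt3, and without rapamycin-mother library 2 they were -1.31, -0.82 and -1.42. For aged over young mothers, Mt1 was -0.22 ± 0.47 and turned to 0.35 without the same library. Mt2 was 0.40 ± 0.46 and Mt3 -0.33 ± 0.53.

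The remaining members named by the smallest p changed little. Sod3, the extracellular superoxide dismutase, measured 11.9, 17.8 and 9.04 CPM in offspring of rapamycin-treated mothers, 8.90, 15.2 and 11.9 CPM in offspring of aged mothers and 10.3, 9.03, 9.81 and 7.75 CPM in offspring of young mothers. Gclc, the catalytic subunit of glutamate-cysteine ligase, measured 60.2, 44.8 and 61.4 CPM in offspring of rapamycin-treated mothers, 46.2, 49.2 and 51.9 CPM in offspring of aged mothers and 58.2, 48.0, 60.6 and 56.1 CPM in offspring of young mothers. Nfe2l2 lay at 15.7, 23.2 and 18.4 CPM in offspring of rapamycin-treated mothers, 21.9, 20.6 and 18.9 CPM in offspring of aged mothers and 17.1, 24.3, 13.8 and 14.8 CPM in offspring of young mothers. Gpx7 stayed at 2.28 to 4.83 CPM over the 10 libraries. Prdx3, the mitochondrial peroxiredoxin, ranged from 54.0 to 102 CPM over them. None of these passed, and all the groups overlapped. Gsto2, which separated older from young oocytes, stayed at 0.507 to 2.17 CPM in hippocampus, with a change of -0.01 ± 0.44 for offspring of aged over young mothers.

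Single libraries set much of the members' spread in hippocampus. Rapamycin-mother library 2 was the highest of its group for 38 of 40 members, and young-mother library 2 for 33 of 40. The share of all genes highest in these libraries was not computed, so these counts have no background and may not be particular to the members. The summed level of the 40 members was 2551, 5225 and 2878 CPM in offspring of rapamycin-treated mothers, 4238, 4630 and 3694 CPM in offspring of aged mothers and 3464, 6029, 2688 and 3443 CPM in offspring of young mothers. The cytosolic ribosomal protein genes varied beside it, with 10661, 30936 and 14563 CPM in offspring of rapamycin-treated mothers, 27844, 25620 and 20430 CPM in offspring of aged mothers and 17122, 31660, 13619 and 18429 CPM in offspring of young mothers. The 7 endothelial markers ran the other way: they summed to 66.9 to 90.5 CPM in the 5 libraries with the highest member sums and to 173 to 220 CPM in the other 5. The 8 oligodendrocyte markers summed to 2739, 9752 and 4855 CPM in offspring of rapamycin-treated mothers, 7714, 9962 and 4160 CPM in offspring of aged mothers and 3132, 9808, 3936 and 4024 CPM in offspring of young mothers. The 9 astrocyte markers summed to 5219, 7372 and 5246 CPM in offspring of rapamycin-treated mothers, 6429, 6739 and 6084 CPM in offspring of aged mothers and 5631, 7465, 4864 and 5489 CPM in offspring of young mothers. The 8 microglia markers summed to 391, 626 and 425 CPM in offspring of rapamycin-treated mothers, 493, 486 and 460 CPM in offspring of aged mothers and 510, 766, 399 and 372 CPM in offspring of young mothers. All 3 lists were highest of their group in rapamycin-mother library 2 and young-mother library 2, and the part of these lists in the members' values was not tested. With the ribosomal protein level as a covariate, the members' medians became -0.04 for aged against young mothers, 0.07 for rapamycin-treated against aged mothers and 0.01 for rapamycin-treated against young mothers, and no member passed. In that fit Mt3 was -0.64 ± 0.24 for aged against young mothers (edgeR adjusted p 0.757), and Txnip was 0.91 ± 0.22 (edgeR adjusted p 0.316). For rapamycin-treated against aged mothers, Mt1 was -0.04 ± 0.23, Mt2 -0.20 ± 0.22 and Mt3 0.01 ± 0.28 in that fit, against -0.61, -0.79 and -0.66 without the covariate. Of the 14 glucocorticoid-responsive genes, 3 were called higher for aged against young mothers in it (lowest edgeR adjusted p 0.0104), and 10 had an unadjusted p under 0.05. The wider redox list had 50 of 54 genes tested in hippocampus and none called.

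**Figure D5:**
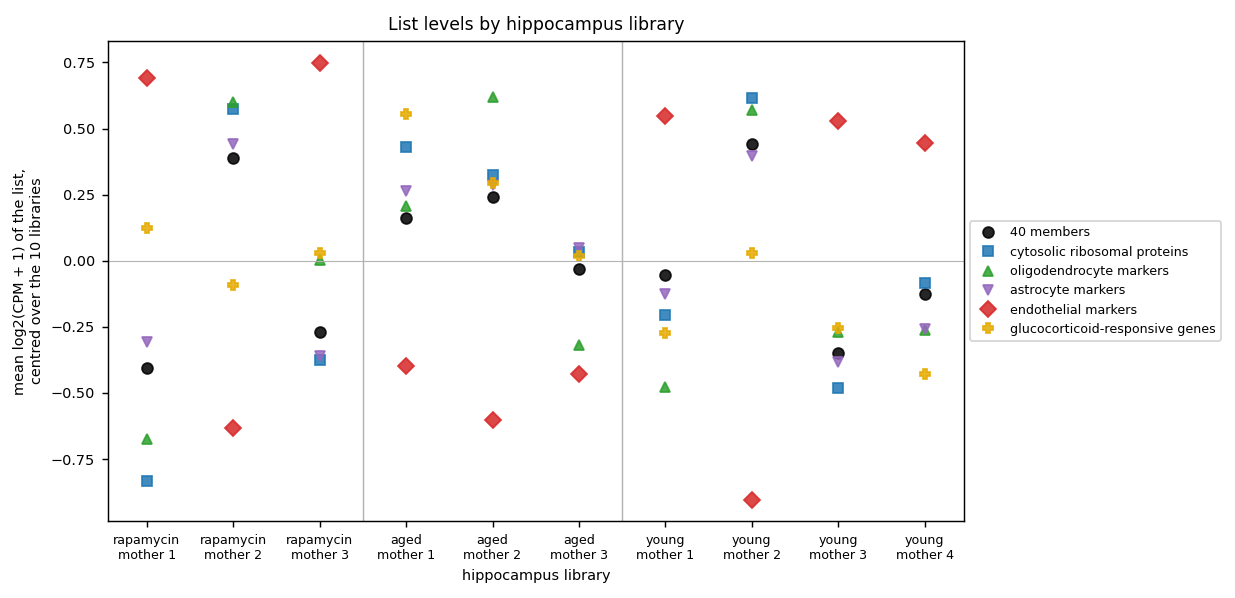
Mean log2(CPM + 1) of 6 gene lists in each hippocampus library, centred on the list's mean over the 10 libraries. The 40 members and the cytosolic ribosomal proteins are high in rapamycin-mother library 2 and young-mother library 2, where the endothelial markers are low.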

How the data were processed

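RNA was measured in 17 libraries, and each deposited file holds 1 library's counts of reads per gene, which the authors left without normalization. Per the submitters' processing notes, the tools were STAR and HTSeq and the build mm10. The sources used here do not state tool versions, the annotation counted on or whether counting used strand. Where genes overlap on opposite strands their reads are therefore uncertain, and Hmox2, Mt2, Gpx4 and Gstp1 share over 10% of their 75-base words with another gene. The 5 summary rows that name no gene were left out of library sizes and tests: reads outside genes were 6.09% to 9.32% of oocyte and 11.6% to 16.0% of hippocampus library totals.

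Each tissue was fitted on all its libraries with edgeR 4.0.16 (TMM scaling, filterByExpr, glmQLFit, glmQLFTest; R 4.3.3), adjusted over all tested genes at 0.05, and tested on simulated counts with 200 changed genes. The alternatives were RLE scaling, other filters, DESeq2 1.42.0, a fit of the compared groups alone, a replicate block, a ribosomal covariate in hippocampus and leaving out each library. Ratios of summed counts carry exact 95% intervals. No pair of libraries agreed within sampling noise (lowest chi-square per degree of freedom 12.8).

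The replicate numbers come from the titles. Deviations of same-numbered libraries correlated at 0.181, 0.635 and 0.318 between the rapamycin-mother and young-mother groups, and not over 0.1 in every pair of any other comparison of groups. Different-numbered libraries of the rapamycin-mother and young-mother groups ranged from -0.573 to 0.518. Rapamycin-mother 1 correlated more with young-mother 3 (0.518) than with young-mother 1 (0.181), so the correlations do not follow the replicate number alone.

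The members and lists were chosen with earlier results of these data known. Members were named by a rule: those past the threshold, otherwise the 4 of smallest p in each comparison, the 3 highest per kilobase in each tissue, and the metallothioneins. Gclm, Txnrd1, Gpx3, Keap1, Gsto1, Sod1, Sod2, Txn2, Ptx3, Inha, Gja1, Cyp11a1 and Cyp19a1 were singled out after their values were seen. Positions and exon lengths are from GENCODE M21 (GRCm38), which matched all 40 members.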

Additional observations from a re-analysis of the deposited data

Results flagged for a closer look

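In the 4 offspring of young mothers, 1 library, young-mother 2, lay far above the others for 3 of the 40 members: Prdx6 at 399 CPM, Mt2 at 241 CPM and Gstm1 at 570 CPM. In each case its gap to the next library exceeded the 95% critical value of Dixon's test for 4 values. Chance flags about 1 in 20 groups, and the 40 values come from the same 4 libraries. The same library had the highest cytosolic ribosomal protein sum, 31660 CPM, against 13619 to 18429 CPM in the other 3, and its part in these values was not tested.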

How the results depend on the processing

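Of the alternatives to the oocyte fits, those that made single members pass were these. For aged against young oocytes the count of members called (0) became 1 without the low-count filter, 1 by DESeq2 and 5 with only the 2 groups compared (Glrx, Gsto2, Txnip higher, Gstp1 and Nfe2l2 lower), and 0 to 3 when a library was left out. The count of all genes called (27) became 167, 288, 1177, 1 with the replicate block, and 0 to 1168. For rapamycin against aged oocytes no alternative called a member, and the count of all genes (0) became 11 without the filter, 11 by DESeq2, and 0 to 6 with a library left out. For rapamycin against young oocytes the member call was lost (0) under the 10 CPM filter, which removes Gsto2, with only the 2 groups compared and with the replicate block, and was 0 to 2 with a library left out; the count of all genes (43) became 179 without the filter, 14 with only the 2 groups, 0 with the block, 243 by DESeq2, and 0 to 304.

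In hippocampus, members called stayed at 0 in all alternatives but DESeq2, which called Txnip (1) for aged against young mothers. All genes called there (7) became 2 with only the 2 groups compared, 52 by DESeq2, 11 with the ribosomal covariate and 0 to 15 with a library left out. For rapamycin-treated against aged mothers (0) it became 2, 12 by DESeq2, and 0 to 1. For rapamycin-treated against young mothers (8) it became 5, 4 with the replicate block, 36 by DESeq2, 16 with the covariate, and 2 to 10.

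Replicate numbers did not pair the oocyte libraries (same-number correlations from -0.0924 to 0.004), and the block turned Glrx for rapamycin against young oocytes to -0.46 and the members' median to -0.10. The block changed no member call in hippocampus. That median ranged from -0.034 (without rapamycin 3) to 0.74 with a library left out. Other medians that changed sign were those of aged against young mothers (-0.043 with the covariate, -0.0020 to 0.32 with a library left out), rapamycin-treated against aged mothers (0.074 with the covariate) and rapamycin-treated against young mothers (0.0051 with the covariate, -0.41 to 0.069 with a library left out). With a library left out, Mt1 for aged against young mothers ranged from -0.47 to 0.35, and Mt2 for rapamycin-treated against young mothers from -0.82 to 0.23, both highest without young-mother 2. The medians were added after seeing the data. The cause of these changes was not tested. Depth limits the oocyte results: a count of 3 is up to 0.809 CPM, and every Mt3 value and several of Mt1 and Mt2 lie under that.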
